A study of Homo sapiens with 24 samples.

Results

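Matrix metalloproteinases (MMP genes), ADAMTS proteases and the tissue inhibitors of metalloproteinases (TIMP genes) were followed in human embryonic stem cells in which Wnt signalling could be switched on by light. Members were taken by name and gene type alone: every protein-coding gene whose symbol is MMP, ADAMTS or TIMP followed by its number. That gave 38 of the 28297 Ensembl genes in the table: 15 MMP, 19 ADAMTS and 4 TIMP genes. MMPs and ADAMTS proteases are zinc enzymes that cut proteins of the extracellular matrix; membrane-type MMPs sit at the cell surface, while ADAMTS proteases are secreted and bind the matrix through thrombospondin repeats. TIMP proteins block MMPs by filling the active site, and the pair of MMP14 and TIMP2 also activates the secreted precursor of MMP2. During gastrulation, cells that leave the epiblast cross a basement membrane, and these enzymes are among those known to remodel it.

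The cells were H9, an established line of human embryonic stem cells, kept in E8 medium, and poly(A) RNA was read by stranded sequencing. Engineered cells carried 1 construct of the plant photoreceptor Cry2, the Wnt co-receptor LRP6 and mCherry, which clusters LRP6 under blue light. The wild-type (wt) cells were not unlabelled, since eGFP was read in every wt library. Monocultures of Cry2 or wt cells, and co-cultures of both kinds sorted into mCherry-positive and GFP-positive cells, were kept in the dark or under light of 0.8 µW/mm² for 48 h. There were 8 groups of 3 libraries, each library from 2 to 3 pooled wells, called replicates 1 to 3 in monoculture and a, b and c in co-culture. The sources used here name 1 engineered line and give no clone number, so genotype and clone cannot be told apart. Nothing says that replicates came from separate cultures on separate days, so p-values measure the spread between these samples.

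Reads assigned to genes numbered 28237578 to 34291124 per library for monocultures kept dark, 45763662 to 54707558 for those kept under light and 31807414 to 56639833 for co-cultures. In monoculture, depth and light cannot be told apart. The genotype tags of the monoculture samples name the opposite genotype from their titles. Titles were used, and normalised counts of the construct went with them (34166 to 37398 in Cry2 dark, 325 to 427 in wt dark). A GC content of 33.73% in wt dark replicate 1, an RNA integrity number of 7.6 in Cry2 dark replicate 3, and large differences of mCherry light a and wt light replicate 2 from the rest of their groups set those libraries apart. To a lesser degree GFP light a also differed from the rest of its group. GC and integrity of the co-culture libraries were not used here, since those entries match no single sample. The summed level of 6 pluripotency markers, all in the table, was 229622 to 238525 in Cry2 dark and 66034 to 68209.8 in Cry2 light, while 5 of 5 primitive streak and mesoderm markers summed to 192 to 243 and 128061 to 130932. In mCherry cells the same sums were 229612 to 247843 and 65640.3 to 85093 for pluripotency, and 177 to 186 and 117212 to 137442 for streak and mesoderm. Among 6 fibroblast markers DCN and LUM were not listed, and the sum of the other 4 was 40569 to 42588 in Cry2 dark and 15791 to 18244 in Cry2 light. Of those 4, COL3A1 was higher and THY1 lower in Cry2 light, and in mCherry light COL1A1, COL3A1 and PDGFRB were higher and THY1 lower. The sum of 3 of 3 definitive endoderm markers was 2.61 to 8.93 in Cry2 dark and 9615 to 9922 in Cry2 light, and 9.42 to 16.7 and 9207 to 11215 in the mCherry groups. The part of these shifts in the members' changes was not tested, and in bulk RNA fewer cells of a type and less RNA per cell cannot be told apart.

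In engineered cells light moved most of these genes, in both directions. Of the 33 members that passed the filter on low values, 14 were higher and 11 lower in Cry2 light than in Cry2 dark (limma, Benjamini-Hochberg adjusted p under 0.05), against 28.1% and 30.4% of all 19444 genes tested, or 58.4% in either direction. In mCherry-sorted cells 16 were higher and 9 lower, where 27.2% and 28.7% of 19436 genes were called, or 55.9% together. The called share of members was 75.8% in both cultures. Their median log2 change was 0.11 in Cry2 and 0.10 in mCherry cells, beside -0.01 over all genes in each. ADAMTS genes leaned upward: of 18 tested, 11 were higher and 4 lower in Cry2 light, and 12 and 4 in mCherry light. Of 11 MMP genes tested, 2 were higher and 6 lower in Cry2 light, and 2 and 4 in mCherry light. The mCherry counts lie close to the shares of all genes. MMP19 and MMP23B were called lower in Cry2 cells only. The heat map of the tested members shows the same block of red and blue in both illuminated engineered groups.

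**Figure D1:**
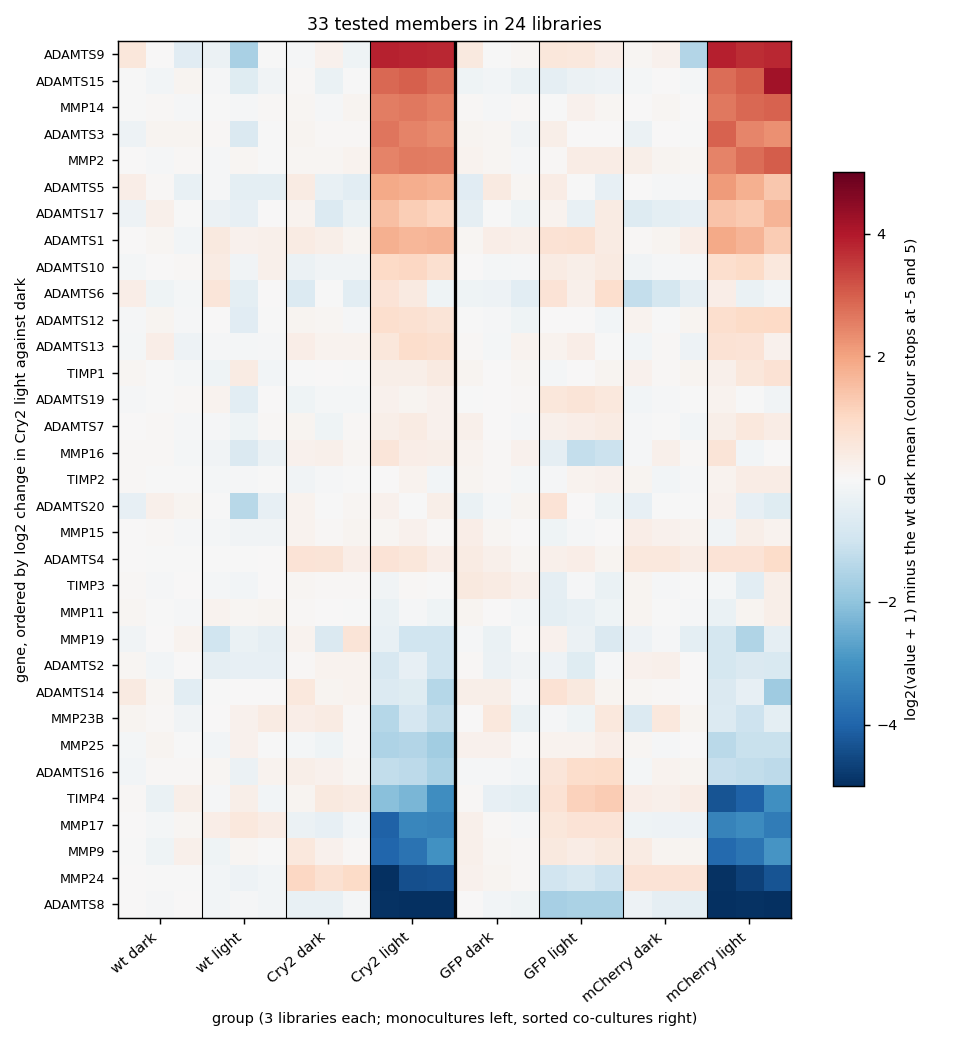
Each row is 1 of 33 tested genes and each column 1 of 24 libraries; colour gives log2(value + 1) minus the mean of the 3 wt dark libraries. The 3 Cry2 light and 3 mCherry light columns carry strong rises at the top (ADAMTS9, ADAMTS15, MMP14) and strong falls at the bottom (ADAMTS8, MMP24), and GFP light shows a paler fall of ADAMTS8 and MMP24 with a rise of TIMP4.

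MMP14, the membrane-anchored collagenase that activates MMP2, and MMP2 itself, which cuts gelatin and the type IV collagen of basement membranes, rose together and were the only MMP genes called higher. MMP14 (ENSG00000157227, chromosome 14, 22836557 to 22849027, plus strand) read 4389, 3953 and 4449.9 normalised counts in Cry2 dark and 24115, 25395 and 23386 in Cry2 light. It read 4138, 4302 and 4078 in mCherry dark and 25316, 29424 and 31770.1 in mCherry light. Every illuminated engineered library lay far above every other library, whose MMP14 values stayed between 3915 and 4713. The log2 change was 2.51 ± 0.06 (SE) in Cry2 and 2.78 ± 0.09 in mCherry cells, with adjusted p of 3.25e-14 and 1.47e-12, or 5.70-fold and 6.91-fold between group means. MMP2 (ENSG00000087245, chromosome 16, 55389700 to 55506691, plus strand) read 4353, 4357 and 4587 in Cry2 dark against 22691, 24438 and 24006 in Cry2 light. In mCherry cells it went from 4995, 4408 and 4349 to 22889.5, 28379 and 32884. The groups did not overlap in either culture, and the log2 changes were 2.42 ± 0.06 and 2.60 ± 0.12 (adjusted p 3.02e-14 and 1.32e-10).

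**Figure D2:**
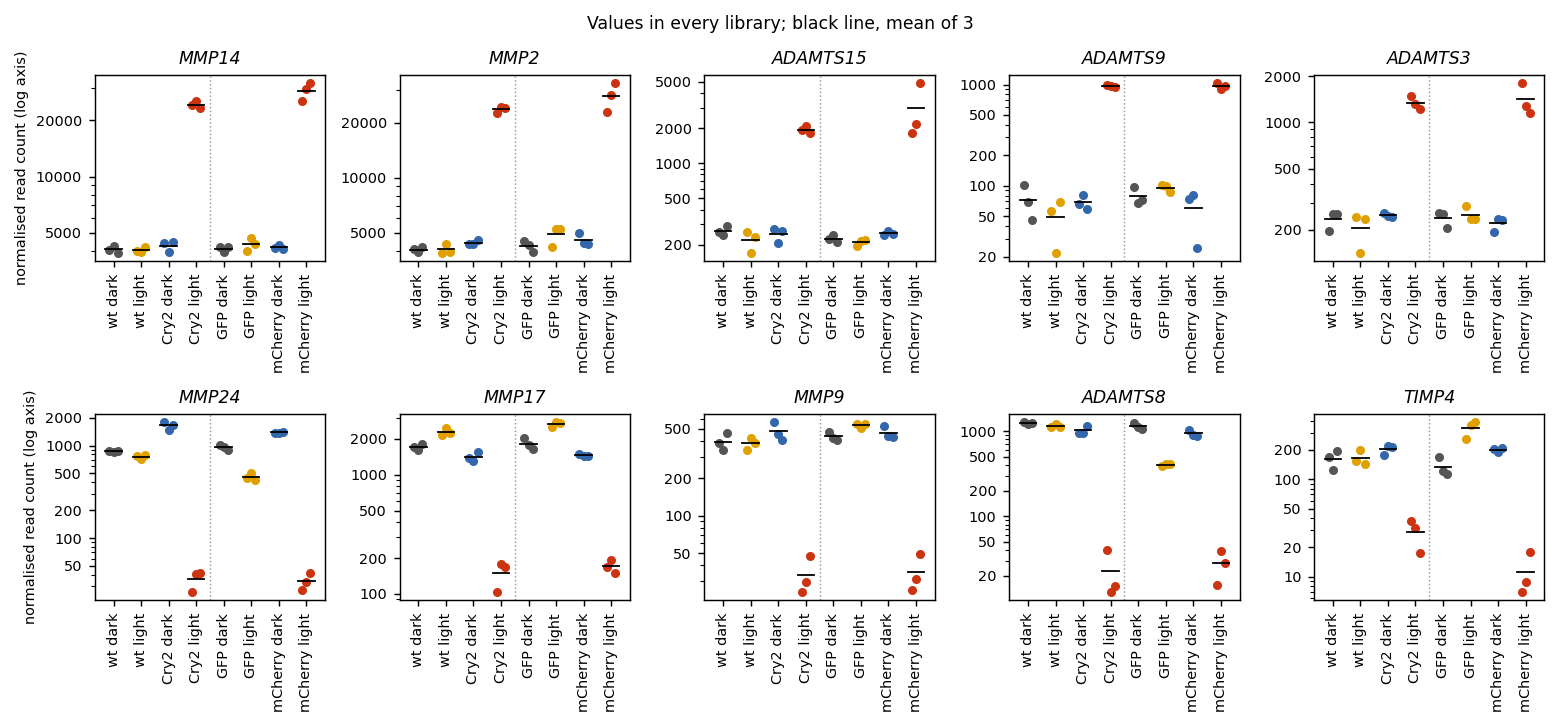
Normalised read counts (log axis) of 10 members in all 24 libraries, with 1 point per library and a black line at the mean of each group of 3; axes differ between panels. MMP14, MMP2, ADAMTS15, ADAMTS9 and ADAMTS3 (top row) are high in Cry2 light and mCherry light, and MMP24, MMP17, MMP9, ADAMTS8 and TIMP4 (bottom row) are low there.

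MMP9, the other gelatinase, went the opposite way. It read 565, 458 and 409 in Cry2 dark and 24.4, 29.2 and 47.0 in Cry2 light, and 526, 435 and 430.3 in mCherry dark and 25.4, 30.7 and 49.7 in mCherry light. That is 14.2-fold and 13.1-fold lower, with log2 changes of -3.83 ± 0.22 and -3.73 ± 0.20 (adjusted p 4.74e-10 and 4.46e-10). The gelatinases thus drew further apart on the scale per kilobase: the level of MMP2 went from 899 ± 27.1 to 4807 ± 185 (SD, n = 3) in Cry2 cells, and that of MMP9 from 204 ± 34.2 to 14.4 ± 5.10.

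The 6 membrane-type MMPs split as well. MMP24, a transmembrane enzyme best known from neurons, fell most of the 6: it read 1782, 1486 and 1680.2 in Cry2 dark and 26.2, 40.5 and 41.7 in Cry2 light, and 1379.8, 1382 and 1399 in mCherry dark against 27.2, 33.2 and 42.1 in mCherry light. Group means were 45.6-fold and 40.6-fold lower, and the log2 changes -5.50 ± 0.15 and -5.33 ± 0.14 (adjusted p 9.91e-14 and 2.87e-13). MMP17 and MMP25 are held at the surface by a lipid (GPI) anchor in place of a membrane-spanning helix. MMP17 went from 1390.5, 1299 and 1549 to 104, 177 and 168 in Cry2 cells, and from 1487, 1442 and 1437 to 167, 192 and 150.5 in mCherry cells. MMP25 went from 1863, 1699 and 2076 to 684, 709.8 and 602, and from 2112, 1913 and 1994 to 778, 923 and 911. Both GPI-anchored members therefore fell without overlap between light and dark, MMP17 by 9.44-fold and 8.57-fold and MMP25 by 2.83-fold and 2.30-fold (adjusted p 5.87e-11 and 2.56e-12 for MMP17, 4.96e-09 and 3.89e-08 for MMP25). MMP15 and MMP16, relatives of MMP14 that can also activate MMP2, were not called: MMP15 was 5143 ± 213 in Cry2 dark and 5125 ± 334 in Cry2 light (log2 change -0.01 ± 0.06), and MMP16 was 1531 ± 69.6 and 1788 ± 226 (0.22 ± 0.12, adjusted p 0.14).

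The remaining MMP genes were low or moved little. MMP11, a stromelysin, had 659 ± 13.3 in Cry2 dark and 567 ± 56.8 in Cry2 light (adjusted p 0.0515) and 655 ± 42.8 and 678 ± 146 in the mCherry groups. MMP23B was called lower in Cry2 cells (53.5, 56.6 and 44.6 against 15.4, 23.5 and 17.7; log2 change -1.42 ± 0.27) but not in mCherry cells (-0.73 ± 0.35, adjusted p 0.0932); its near-identical copy MMP23A may share reads with it, so its values are uncertain. MMP19 was called lower in Cry2 cells (67.9, 36.8 and 95.2 against 46.1, 29.98 and 30.2, adjusted p 0.0493) although its groups overlapped. That call was lost without Cry2 dark replicate 1 or 3 or Cry2 light replicate 2 or 3 (adjusted p 0.118 to 0.23). MMP10, MMP12, MMP21, MMP28 and ADAMTS18 did not pass the filter; their highest values in any library were 22.6, 4.44, 3.83, 8.48 and 14.3. MMP10, another stromelysin, was listed at 0 in all 6 illuminated engineered libraries, and MMP1, MMP3, MMP7, MMP8, MMP13, MMP20, MMP26 and MMP27 were not among the features analysed.

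A promoter entry in the RefSeq table (GRCh38.p14) was found for 22 of the 38 members, among them MMP14 and MMP24, whose upstream sequences are shown because these membrane-type enzymes moved furthest in opposite directions. Capitals mark the GC box bound by SP factors (GGGCGG or its reverse complement CCGCCC), the sequence stops where the GENCODE gene begins, and letters run 5′ to 3′ on the gene's strand.
MMP14, chr14:22836335-22836556, plus strand: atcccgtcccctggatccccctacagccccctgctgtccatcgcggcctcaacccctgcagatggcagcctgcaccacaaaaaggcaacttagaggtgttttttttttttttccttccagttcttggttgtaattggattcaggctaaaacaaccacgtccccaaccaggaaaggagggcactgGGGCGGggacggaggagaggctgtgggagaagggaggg
MMP24, chr20:35226440-35226653, plus strand: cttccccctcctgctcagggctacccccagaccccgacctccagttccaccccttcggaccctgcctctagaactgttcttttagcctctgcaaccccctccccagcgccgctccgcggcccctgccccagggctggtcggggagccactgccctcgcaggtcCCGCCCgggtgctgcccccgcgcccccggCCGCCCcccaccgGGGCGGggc
MMP14 shows 1 GC box, and MMP24 shows 3 near the gene start. On either strand of the 250 bases upstream, 19 of the 22 members held GGGCGG, as did 42.6% of 35116 promoters of that length. These shares were not matched for GC content. It had a median of 58% over all promoters and ran from 34.4% (MMP10) to 80.8% (ADAMTS7) in members. Members without an entry included MMP2, MMP9, MMP17, MMP25, ADAMTS8, ADAMTS9 and ADAMTS15. All 8 members with an entry that rose in both cultures and all 4 that fell in both held it. None of these 12 held the TCF/LEF letters CTTTGAA or CTTTGAT or the T-box letters TCACACC, which 3.81%, 2.26% and 2.76% of all promoters held. A match or its absence describes the letters of this window only.

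Among the 7 ADAMTS proteoglycanases, which cut the large aggregating proteoglycans versican and aggrecan, 4 rose in both engineered groups and ADAMTS8 fell. ADAMTS9 had the largest rise of any member: 66.6, 80.6 and 59.5 in Cry2 dark against 999.8, 966 and 952 in Cry2 light, and 73.6, 80.9 and 24.5 in mCherry dark against 1035, 898 and 959 in mCherry light. Its illuminated values were 14.1-fold and 16.1-fold higher, with log2 changes of 3.81 ± 0.35 and 4.16 ± 0.33 (adjusted p 1.83e-07 and 5.27e-08). ADAMTS15 read 273, 208 and 260.4 in Cry2 dark and 1915, 2078 and 1824 in Cry2 light (log2 change 2.98 ± 0.15). In mCherry cells it went from 244, 264 and 248 to 1832, 2164 and 4872; library c, the shallowest of its group, had the highest of these values. Over all alternatives tried, the mCherry log2 change of ADAMTS15 ran from 2.98 to 3.68, beside 3.41 ± 0.25. ADAMTS1 read 924, 868 and 775 in Cry2 dark and 2441, 2242 and 2278 in Cry2 light, and 724, 768 and 886 against 2649.6, 2299 and 1692 in mCherry cells. ADAMTS5, the main aggrecanase of cartilage, read 112, 66.4 and 59.5 against 318, 302 and 290.1 in Cry2 cells, and 86.5, 82.8 and 82.3 against 377, 293 and 219.7 in mCherry cells. Light and dark did not overlap for ADAMTS1 or ADAMTS5 in either culture, and their log2 changes were 1.44 ± 0.10 and 1.98 ± 0.25 in Cry2 and 1.46 ± 0.15 and 1.78 ± 0.28 in mCherry cells.

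ADAMTS8, the proteoglycanase that fell, read 953, 947 and 1153 in Cry2 dark and 39.8, 13.0 and 15.1 in Cry2 light. In mCherry cells it read 1035, 908 and 881 against 15.8, 39.6 and 28.6. The fall was 45.0-fold and 33.6-fold, on the log2 scale -5.60 ± 0.27 and -5.11 ± 0.23 (adjusted p 9.78e-11 and 6.71e-11). ADAMTS8 and ADAMTS15 lie 19.98 kb apart on chromosome 11, on the minus strand (130404925 to 130428993) and the plus strand (130448974 to 130476641). These neighbours changed in opposite directions: the ratio of ADAMTS15 to ADAMTS8 per kilobase was 0.194 ± 0.0294 in Cry2 dark and 87.5 ± 45.4 in Cry2 light, and 0.215 ± 0.0235 and 90.6 ± 46.2 in the mCherry groups. ADAMTS1 and ADAMTS5, 72.5 kb apart on the minus strand of chromosome 21, rose together. ADAMTS20 was not called in either culture (474 ± 31.6 and 498 ± 54.7 in Cry2 dark and light). ADAMTS4, also an aggrecanase, read 756, 735 and 591 in Cry2 dark and 755, 694 and 590.0 in Cry2 light, with no call. In mCherry cells it read 663, 669.8 and 595 against 741, 753 and 874 (log2 change 0.29 ± 0.11, adjusted p 0.037), a call lost without mCherry dark a, b or c or mCherry light c (adjusted p 0.054 to 0.144).

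The 3 procollagen N-proteinases, which trim the amino end of fibrillar procollagens, also split. ADAMTS3 read 257, 246 and 243 in Cry2 dark and 1489, 1308 and 1222 in Cry2 light, and 193, 236 and 233 against 1802, 1283 and 1154 in mCherry cells. ADAMTS2 fell from 623, 673 and 671 to 340.2, 445 and 294 in Cry2 cells, and from 685, 703 and 596 to 318, 362 and 346 in mCherry cells. ADAMTS14 fell from 299, 228 and 232 to 127, 134 and 76.3, and from 222, 215 and 207 to 125, 153 and 60.2. ADAMTS3 was thus 5.39-fold and 6.40-fold higher (adjusted p 1.32e-08 and 3.92e-09), while ADAMTS2 was 1.82-fold and 1.93-fold lower and ADAMTS14 2.25-fold and 1.90-fold lower, all without overlap between light and dark. On the scale per kilobase ADAMTS3 was the lowest of the 3 in Cry2 dark (34.7, beside 75.1 for ADAMTS2 and 48.0 for ADAMTS14) and the highest in Cry2 light (187, beside 41.2 and 21.3).

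Of the other 8 ADAMTS genes tested, 5 rose in both engineered groups and ADAMTS16 fell. ADAMTS10, a protease that binds fibrillin microfibrils, read 336, 366 and 366 in Cry2 dark and 841, 845 and 715 in Cry2 light, and 365, 397 and 403 against 741, 808 and 602 in mCherry cells. ADAMTS12 read 1304, 1241 and 1115 against 2116, 2009.6 and 1851, and 1323, 1142 and 1294 against 2116, 2245 and 2324. ADAMTS17 read 44.4, 24.03 and 31.3 against 112, 94.0 and 83.4, and 24.8, 27.9 and 29.3 against 107, 99.5 and 129. These 3 genes therefore rose 2.25-fold, 1.63-fold and 2.91-fold in Cry2 cells and 1.85-fold, 1.78-fold and 4.10-fold in mCherry cells, with no overlap. ADAMTS13, which cuts von Willebrand factor, read 334, 305 and 301 against 401, 489 and 464 (log2 change 0.52 ± 0.15, adjusted p 0.00672), and 241, 278 and 224 against 446, 432 and 315 (0.67 ± 0.16, 0.0024). ADAMTS7, a relative of ADAMTS12, rose less: 4401, 3454 and 4105 against 4837, 5259 and 4634 (0.31 ± 0.09), and 3853, 3945 and 3618 against 4827, 5672 and 5112 (0.45 ± 0.09). ADAMTS16 read 516, 484 and 445 in Cry2 dark against 177, 169 and 138 in Cry2 light, and 389, 469.8 and 463 against 186, 179.5 and 169 in mCherry cells, 2.98-fold and 2.47-fold lower.

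Calls of ADAMTS19 and ADAMTS6 were held by 1 culture each and lay close enough to the threshold to be lost when any of several libraries was left out. ADAMTS19 read 1489.7, 1602 and 1607 in Cry2 dark and 2001, 1898 and 1964 in Cry2 light (log2 change 0.32 ± 0.12, adjusted p 0.038), and 1618 ± 68.7 and 1720.2 ± 222 in the mCherry groups (adjusted p 0.479). Leaving out any 1 Cry2 library other than light replicate 2 ended the call (adjusted p 0.063 to 0.111). ADAMTS6 read 23.97, 30.7 and 41.1 in mCherry dark and 71.0, 45.3 and 51.2 in mCherry light (0.79 ± 0.28, adjusted p 0.024), a call lost without mCherry dark a or b or mCherry light a (adjusted p 0.056 to 0.103). In Cry2 cells its log2 change was 0.73 ± 0.33, with an adjusted p of 0.0689.

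Of the 4 inhibitors TIMP4 fell, and the others changed by at most 0.36 on the log2 scale. TIMP4, the member of the family with the narrowest tissue range, read 178, 222 and 213 in Cry2 dark and 37.1, 31.6 and 17.7 in Cry2 light, and 203, 189.8 and 208 in mCherry dark against 7.01, 8.90 and 18.1 in mCherry light. It was 7.08-fold and 17.7-fold lower, with log2 changes of -2.84 ± 0.26 and -4.13 ± 0.29 (adjusted p 1.68e-07 and 1.03e-08). TIMP1, a soluble inhibitor, read 1755, 1796 and 1746 against 2128, 2178 and 2381 in Cry2 cells (0.33 ± 0.12, adjusted p 0.0258), and 2061, 1849 and 1949 against 2109, 2578 and 2896 in mCherry cells (0.36 ± 0.11, 0.0102). The Cry2 call was lost without dark replicate 1 or 3 or light replicate 3 (adjusted p 0.061 to 0.079), and the mCherry call without light library c (0.054). TIMP2, the partner of MMP14, read 1528, 1664 and 1703 against 1763, 1947 and 1585 in Cry2 cells, with no call (adjusted p 0.245). In mCherry cells TIMP2 read 1881, 1570.4 and 1653 against 1940.3, 2238 and 2257 (0.34 ± 0.11, adjusted p 0.0143), lost without mCherry dark b or mCherry light b (0.068 and 0.052). TIMP3, which is bound in the matrix and also blocks ADAMTS4 and ADAMTS5, read 255, 249 and 250.03 in Cry2 dark and 214, 246 and 238 in Cry2 light, and 262, 233 and 237 against 224, 166 and 295 in mCherry cells, with no call in either. The Cry2 groups of TIMP3 did not overlap, and the mCherry groups did.

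Per kilobase of exon, MMP15 (1164 ± 48.2) and TIMP1 (1146 ± 17.2) were the highest members in Cry2 dark and did not differ beyond their spread (SD, n = 3). MMP14 (955 ± 60.7) and MMP2 (899 ± 27.1) came next, again within their spread, and then ADAMTS7 (516 ± 62.7). In Cry2 light MMP14 (5443 ± 228) led, followed by MMP2 (4807 ± 185), TIMP1 (1447 ± 87.1) and MMP15 (1159.8 ± 75.7), each apart from the next by more than both SDs. MMP24 ranked 7 and ADAMTS8 11 of the 38 members in Cry2 dark, and 31 and 33 in Cry2 light. Summed over all 15 MMP genes the level per kilobase was 4702 ± 207 in Cry2 dark and 11905.5 ± 432 in Cry2 light, and 4766 ± 189 and 13849 ± 1905 in the mCherry groups. The ADAMTS sum was 1835 ± 79.5 and 2652 ± 117 in Cry2 cells and 1759 ± 26.0 and 2816 ± 114 in mCherry cells. The TIMP sum was 1613 ± 38.4 and 1828 ± 63.1, and 1744 ± 104 and 2078 ± 296. Sums per family hide the opposite moves within each, and no test was run on them. The level of MMP14 over that of TIMP2, both per kilobase, was 3.31 ± 0.314 in Cry2 dark and 17.4 ± 1.09 in Cry2 light, and 3.12 ± 0.340 and 16.9 ± 0.713 in the mCherry groups.

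**Figure D3:**
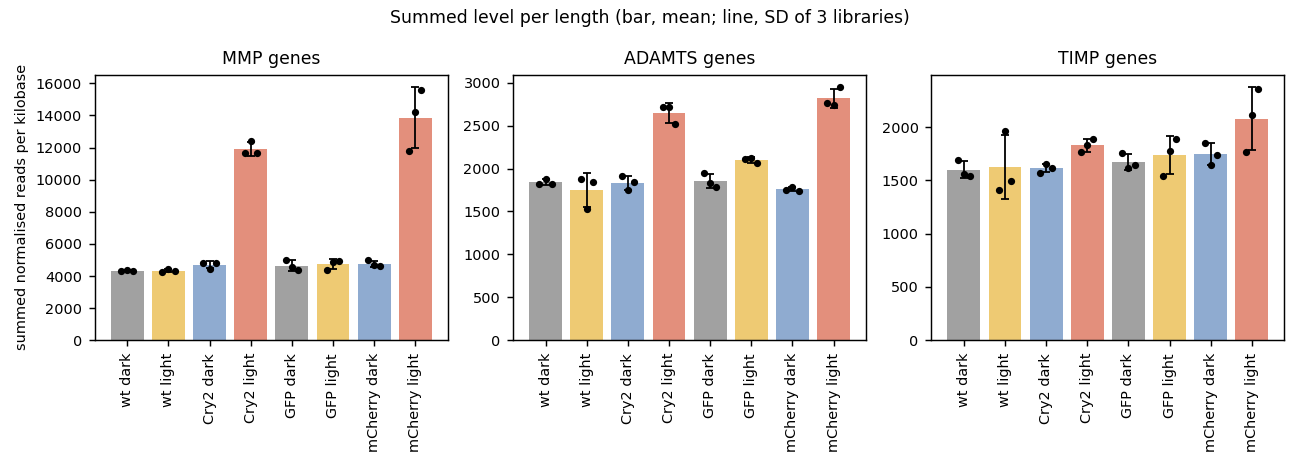
Summed normalised reads per kilobase of the 15 MMP, 19 ADAMTS and 4 TIMP genes in each group; bars are means of 3 libraries, lines their SD and points the libraries. The MMP sum stands at 11905.5 in Cry2 light and 13849 in mCherry light and between 4343 and 4766 in the other 6 groups.

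The same genes were called in the monoculture and in the co-culture for the most part. Of the 33 tested members, 13 were higher in both Cry2 light and mCherry light, 9 lower in both, 0 opposite, and 5 called in neither (ADAMTS20, MMP11, MMP15, MMP16 and TIMP3). Of the 19020 genes tested in both fits, 24.1% were higher in both, 25.7% lower in both, 0.0158% opposite and 34.6% called in neither. The difference between the light effects of mCherry and Cry2 cells, fitted over all 24 libraries, passed the threshold for 0 members in limma (2 at an unadjusted p under 0.05), in edgeR and in DESeq2, against 0.0246% higher and 0.0394% lower of 20322 genes, or 0.064% together. TIMP4 had the largest gap, with a log2 difference of -1.29 ± 0.40 (adjusted p 0.543), and MMP14 differed by 0.27 ± 0.11 (0.845). The plot of one light effect against the other places TIMP4 below the diagonal and most other members near it.

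**Figure D4:**
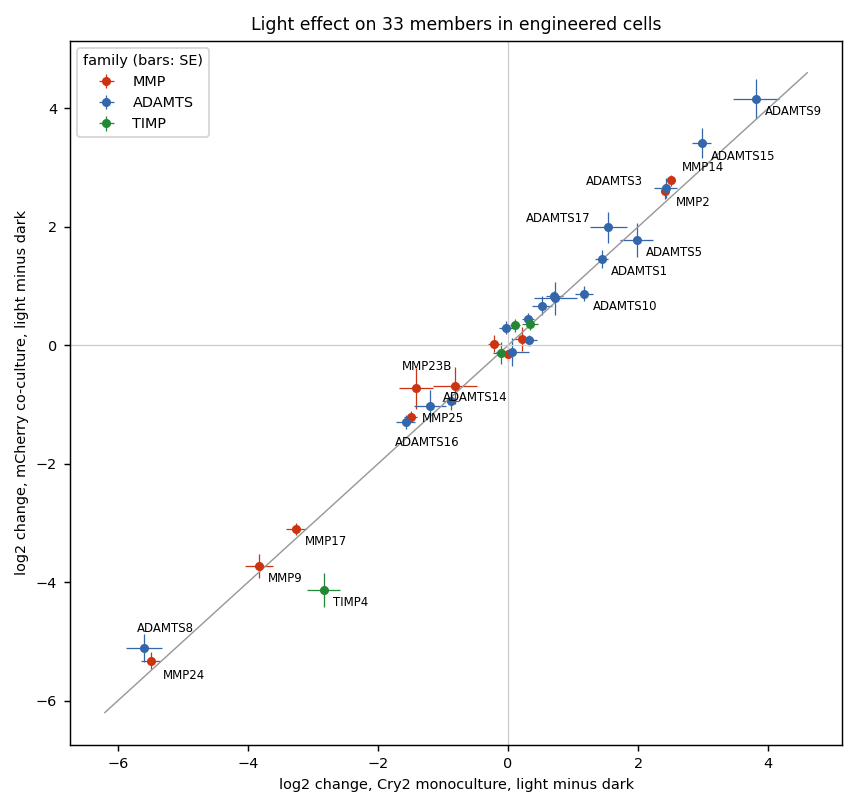
Log2 change under light in mCherry co-culture cells (vertical) against Cry2 monoculture cells (horizontal) for 33 members, coloured by family; bars are SE and the grey line marks equal change. ADAMTS9 and ADAMTS15 lie at the top right, MMP24 and ADAMTS8 at the bottom left, and TIMP4 (-2.84 and -4.13) below the line.

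Set against the light effect in wt cells, the Cry2 effect was higher for 13 members and lower for 11, where 22.8% and 25% of genes were called, or 47.8% together. The members with the largest differences were MMP24 (-5.31 ± 0.21) and ADAMTS8 (-5.49 ± 0.39) downward and ADAMTS9 (4.44 ± 0.50) and ADAMTS15 (3.25 ± 0.21) upward. MMP16, uncalled within Cry2 cells, differed by 0.61 ± 0.17 (adjusted p 0.00828): it was 1531 ± 69.6 and 1788 ± 226 in Cry2 dark and light but 1345 ± 79.5 and 1034 ± 192 in wt. The mCherry effect minus the GFP effect was higher for 11 members and lower for 10, against 19.5% and 21% of genes, or 40.5% together. TIMP4 (-5.45 ± 0.41) and MMP24 (-4.27 ± 0.21) led downward there and ADAMTS9 (3.88 ± 0.47) upward, and MMP16 again differed (1.16 ± 0.28, adjusted p 0.00352).

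In wild-type monocultures light called none of the 33 members in limma (6 at an unadjusted p under 0.05) or in edgeR, where 0.0309% of 19444 genes were called higher and 0.0411% lower, or 0.072% together. DESeq2 called MMP17 alone, which read 1728, 1626 and 1821 in wt dark and 2156, 2453 and 2243 in wt light without overlap (log2 change 0.40 ± 0.15 in limma, adjusted p 0.302). For MMP14 the wt values were 4025, 4253 and 3915 in the dark and 3987, 3945 and 4187 under light, a log2 change of -0.01 ± 0.06. MMP24 read 883, 849 and 864 against 779, 717 and 781, and ADAMTS8 1267, 1199 and 1251 against 1125, 1201 and 1124. Wild-type replicate 2 under light held the lowest ADAMTS9 (21.9), ADAMTS3 (143), ADAMTS15 (171) and ADAMTS20 (171) values of all 6 wt monoculture libraries.

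Wild-type cells that had shared the dish with illuminated engineered cells did show member changes. In GFP light against GFP dark 4 members were higher and 3 lower, where 2.39% and 2.21% of 19436 genes were called, or 4.6% together. TIMP4 read 168, 120.3 and 114 in GFP dark and 262, 359 and 384 in GFP light (log2 change 1.32 ± 0.29, adjusted p 0.016). That call was lost without GFP dark b or c or GFP light b or c (adjusted p 0.074 to 0.083). ADAMTS16 read 399, 405 and 386 against 644, 764 and 785 (0.88 ± 0.12, adjusted p 0.000551), ADAMTS19 1678, 1718 and 1801 against 2546, 2676 and 2460.2 (0.56 ± 0.09, 0.00198), and MMP17 2028, 1786 and 1658 against 2545, 2761 and 2743 (0.56 ± 0.10, 0.00517). Illuminated values of each of these genes lay above its dark values. TIMP4, ADAMTS16 and MMP17 had moved the opposite way in mCherry cells, and ADAMTS19 was not called there. The share of all genes higher in GFP light that moved the opposite way in mCherry cells was not counted. ADAMTS8 read 1248, 1129 and 1055 in GFP dark and 394, 412 and 409.6 in GFP light (-1.49 ± 0.23, adjusted p 0.00129). MMP24 read 1007, 959.8 and 892 against 449, 502 and 426 (-1.05 ± 0.14, 0.000496), and MMP16 1504, 1402 and 1578 against 974, 587 and 641 (-1.06 ± 0.20, 0.00523). ADAMTS8 and MMP24 thus fell in GFP cells too, by 2.82-fold and 2.08-fold beside 33.6-fold and 40.6-fold in mCherry cells. The fit on the GFP groups alone called 11 members, and 1356 genes in all beside 894 in the fit on all 12 co-culture libraries. The 4 members added were ADAMTS1, ADAMTS6, ADAMTS10 and TIMP3. TIMP3 read 332, 316 and 285 against 177, 231 and 190.0 (limma adjusted p 0.0706 in the fit on all 12 co-culture libraries).

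MMP14 and MMP2, the only MMP genes called higher in engineered cells, were not called in GFP cells: 4183, 3917 and 4206 against 3995, 4713 and 4364 for MMP14, and 4537, 4321 and 3932 against 4182, 5248 and 5278 for MMP2. Leaving out GFP light a alone called the same 7 members in GFP light, without MMP2. With GFP light a and mCherry light a both left out, a choice made after seeing the data, 10 members were called. The added members were MMP2, ADAMTS7 and ADAMTS10, while calls over all genes rose from 894 to 2246. Normalised counts of the construct were 349 to 398 in GFP dark and 358 to 422 in GFP light, beside 52164 to 61394 in mCherry light. The 5 streak and mesoderm markers, all in the table, summed to 202 to 246 in GFP dark, 643 to 696 in GFP light and 117212 to 137442 in mCherry light, and the part of that rise in the members' changes was not tested. Compared with the light effect in wt monocultures, the GFP effect was higher for ADAMTS16 (0.88 ± 0.19, adjusted p 0.00914) and ADAMTS19 (0.67 ± 0.16, 0.0232) and lower for MMP24 (-0.86 ± 0.21, 0.0262). The ADAMTS19 difference was lost without wt dark replicate 2 or 3, GFP dark a or b or GFP light b (adjusted p 0.051 to 0.064). That of MMP24 was lost without any 1 wt dark library, wt light replicate 3, GFP dark a or b, or GFP light a or c (0.051 to 0.076). These are 2 members higher and 1 lower, where 1.41% and 0.886% of 20322 genes were called, or 2.3% together. The monocultures were not sorted, so sorting and co-culture cannot be told apart in this difference. ADAMTS8 differed by -1.38 ± 0.38 and TIMP4 by 1.28 ± 0.40 without passing in limma (adjusted p 0.0559 and 0.112), while edgeR and DESeq2 called both.

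**Figure D5:**
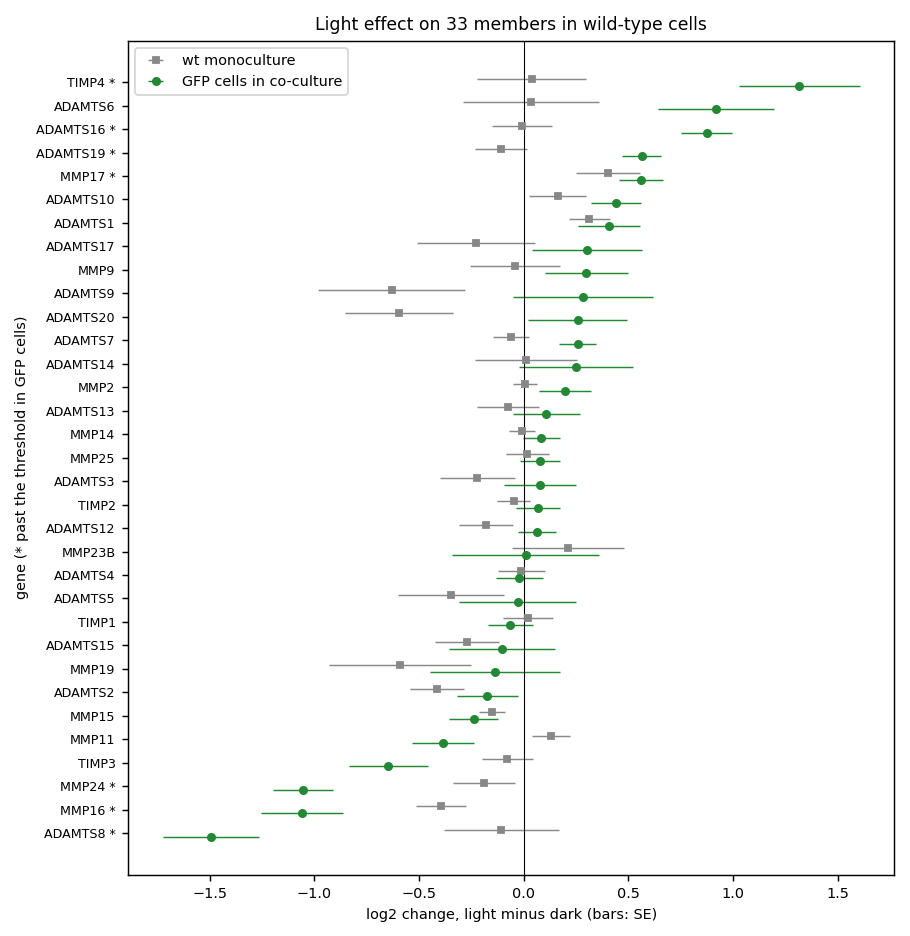
Log2 change under light (horizontal, bars SE) of 33 members in wt monoculture (grey squares) and in GFP cells from co-culture (green circles), ordered by the latter; stars mark the 7 members called in GFP cells. TIMP4 (1.32) stands at the top and ADAMTS8 (-1.49) at the bottom, while their wt monoculture values are 0.04 and -0.11.

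In cultures kept dark, MMP24 and ADAMTS4 were higher in engineered than in wild-type monocultures, 2 members higher and 0 lower beside 2.27% and 1.33% of genes, or 3.6% together. MMP24 (ENSG00000125966) read 883, 849 and 864 in wt dark and 1782, 1486 and 1680.2 in Cry2 dark (log2 difference 0.93 ± 0.15, adjusted p 0.00223). ADAMTS4 read 475, 456 and 462 against 756, 735 and 591 (0.57 ± 0.11, adjusted p 0.0112), which was lost without Cry2 dark replicate 1 or 2 (adjusted p 0.071 and 0.058). In the sorted cells, limma called 0 members between mCherry dark and GFP dark (2 at an unadjusted p under 0.05), where 0.797% of genes were called. MMP24 was nevertheless higher in all 3 mCherry dark libraries (1379.8, 1382 and 1399) than in the 3 GFP dark ones (1007, 959.8 and 892), with a log2 difference of 0.54 ± 0.14 (adjusted p 0.176), and both edgeR and DESeq2 called it. Within 1000000 bases of MMP24 on chromosome 20, 34 other genes were tested in monoculture, of which 6 were higher and 0 lower in Cry2 dark. Their median log2 difference was 0.04, and that of the 514 genes tested on the chromosome was 0.00. Between mCherry dark and GFP dark, 1 of 35 genes in that window was higher and 0 lower, with a median of 0.03. Around ADAMTS4 on chromosome 1, 0 of 44 neighbours were called in monoculture.

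Several members share their locus with another gene, and whether reads were counted by strand is not stated in the sources at hand. MMP24 is crossed by MMP24-AS1 on the opposite strand over 50347 bases; that antisense gene had 999 ± 93.4 in Cry2 dark and 982 ± 61.9 in Cry2 light, while MMP24 went from 1649 ± 151 to 36.2 ± 8.61. MMP25-AS1, opposite MMP25, had 174 ± 18.7 and 287 ± 41.8, a direction opposite to that of MMP25. ADAMTS9-AS2, opposite ADAMTS9, had a higher mean under light, as ADAMTS9 did, at 0.471 ± 0.816 in Cry2 dark and 19.5 ± 3.65 in Cry2 light and at 0.837 ± 0.795 and 15.7 ± 6.83 in the mCherry groups. WTAPP1, opposite MMP10, had a lower mean under light in Cry2 cells, as MMP10 did, at 9.42 ± 5.33 and 2.30 ± 0.441, and 7.43 ± 5.43 and 5.49 ± 4.10 in the mCherry groups. Each of 3 TIMP genes lies inside a synapsin gene on the other strand: SYN2 around TIMP4 had 318 ± 39.2 in Cry2 dark and 284 ± 13.9 in Cry2 light, SYN3 around TIMP3 had 932 ± 102 and 295 ± 31.0, and SYN1 around TIMP1 had 467 ± 20.8 and 134 ± 29.6.

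Genes that act with the members were counted in lists of their own. Of 14 tested matrix proteins that these enzymes cut or bind, 10 were higher and 1 lower in both Cry2 light and mCherry light. Over all genes 28.1% were higher and 30.4% lower in Cry2 light, and 27.2% and 28.7% in mCherry light, the background for the other lists too. The matrix proteins had a median log2 change of 0.78 and 0.99 beside -0.01 over all genes. Biglycan (BGN) rose by 3.91 and 4.44, fibrillin-2 (FBN2) by 3.28 and 3.37 and fibronectin (FN1) by 3.04 and 2.99, while brevican (BCAN) changed by -2.59 and -2.05. Versican (VCAN), the substrate of the ADAMTS proteoglycanases, was higher by 0.48 and 0.38 in engineered cells and by 1.08 in GFP light (adjusted p 0.000164 in limma). Its light effect in mCherry cells was below that in GFP cells (log2 difference -0.70 ± 0.18, adjusted p 0.00647 in limma), and that in GFP cells was above that in wt cells (1.39 ± 0.22, 0.000315). The gene is named after its values were seen. Of 15 genes that activate or restrain MMPs, 7 were higher and 5 lower in Cry2 light and 6 and 5 in mCherry light. Protease nexin-1 (SERPINE2; 2.85 and 2.88) and the MMP docking receptor CD44 (2.47 and 2.63) were among the higher, and tissue plasminogen activator (PLAT; -3.57 and -2.76) and SPOCK2 (-2.64 and -2.91) among the lower. The furin protease that cleaves the MMP14 precursor (FURIN; 0.76 and 0.91) and the membrane inhibitor RECK (0.59 and 0.64) also rose; both are named after their values were seen.

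Related protease families were mixed. Among 11 ADAM sheddases 4 were higher and 6 lower in each engineered culture, led by ADAM12 (2.07 and 2.91) and by ADAM28 (-4.60 and -4.63). Of 3 tested astacin proteinases, which trim the carboxyl end of procollagens, BMP1 (2.79 and 3.09) and TLL2 (0.65 and 0.64) were higher and TLL1 (-4.12 and -3.49) lower. Among 7 ADAMTS-like proteins, which lack the protease domain, ADAMTSL2 was higher (5.18 and 5.61), and ADAMTSL3 (-2.89 and -2.54), ADAMTSL4 and PAPLN lower, in both. Cathepsins and enzymes of hyaluronan gave 7 higher and 0 lower of 9 in both cultures, including HAS2 (6.84 and 6.62), which makes hyaluronan, and cathepsin K (CTSK; 2.66 and 2.98). In GFP light HAS2 (2.12, adjusted p 5.68e-07) and HAS3 (1.02, 0.00027) were the 2 called of that list, and 4 of the 14 matrix proteins were higher, where 2.39% of all genes were higher and 2.21% lower. In wt monocultures light called none of the genes of these lists in limma.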

How the data were processed

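The authors' deposited table gives a normalised expression signal per gene and library. Per the submitters' processing notes, the tools were STAR, HTSeq, Bowtie2, cutadapt, FastQC and DESeq, without versions, and the build was GRCh38, while the authors' sample table names hg19; coordinates here are from GENCODE 29 (GRCh38), by Ensembl identifier. Total read counts, GC percent, alignment percent and an RNA integrity score come from the sample table the authors deposited, used for monocultures only. Multiplying each library by 1 factor returned whole reads for 100.0% of values (within 0.01), so the signal is reads divided by a library factor.

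The test was limma-trend 3.58.1 (R 4.3.3) on log2(value + 1), over genes with at least 10 in at least 3 libraries, with Benjamini-Hochberg adjusted p under 0.05; log2 changes understate those of low genes. The 12 libraries of each culture were fitted together, and all 24 for differences between cultures. edgeR 4.0.16 (quasi-likelihood) and DESeq2 1.42.0 were run on recovered reads; pseudocounts of 5 and 0.5, no filter, and left-out libraries were tried. Folds are ratios of group means; levels per kilobase use merged exon length.

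Members and lists were chosen with earlier results of these data known. Per-library values are given for members called in an engineered light comparison whose higher group averaged 100 or more, for those called elsewhere and for the 4 TIMP genes; of other lists, up to 3 genes per direction called in both engineered cultures.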

Additional observations from a re-analysis of the deposited data

Results flagged for a closer look

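Some light effects differed between groups by a test of the difference itself. The GFP light effect exceeded the wt light effect for ADAMTS16 by 0.88 and for ADAMTS19 by 0.67 on the log2 scale, and for MMP24 it was -0.86 relative to wt. Between Cry2 and wt cells the light effect differed for 24 of 33 tested members, where 47.8% of all genes were called. Between mCherry and GFP cells it differed for 21 of 33, where 40.5% of all genes were called.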

How the results depend on the processing

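Of 107 calls of a member in a comparison, 91 held under every alternative run for that comparison, 16 were lost under at least 1, and 0 turned direction; of 1786 alternative values, 101 kept their direction but missed the threshold. Counts of called members that moved by over 1.5 times were these. DESeq2 called 1 member for wt light, and 290 genes in all beside 14 in limma. The fit on 2 groups alone called 5 members for Cry2 against wt in the dark, 11 for GFP light and 2 (MMP17 and MMP24) for mCherry against GFP in the dark. In that fit calls over all genes rose as well, from 700 to 2470, from 894 to 1356 and from 155 to 385. For mCherry against GFP in the dark, edgeR and DESeq2 each gave 1 (MMP24). So did leaving out the outlying light libraries a or the shallow light libraries c, sets chosen after seeing the data. For GFP minus wt, edgeR and DESeq2 gave 5 each, adding ADAMTS8 and TIMP4. They called 527 and 763 genes there, beside 467 in limma. Leaving out 1 library gave 22 to 25 members for Cry2 light, 0 to 0 for wt light, 1 to 2 for Cry2 against wt in the dark, 20 to 26 for Cry2 minus wt, 22 to 24 for mCherry light, 6 to 7 for GFP light, 0 to 0 for mCherry against GFP in the dark, 20 to 22 for mCherry minus GFP, 0 to 0 for mCherry minus Cry2 and 1 to 3 for GFP minus wt. The count of 1 for GFP minus wt (ADAMTS16) came without wt dark replicate 2 or 3 or GFP dark a or b; over 18 alternatives MMP24 was lost in 8, ADAMTS19 in 5 and ADAMTS16 in 0. For Cry2 minus wt, ADAMTS2, MMP11, ADAMTS7 and ADAMTS13 were lost in 14, 10, 5 and 7 of 20 alternatives, and for mCherry minus GFP TIMP1 in 10 of 19. Same-numbered monoculture libraries did not deviate together (0 of 12 pairs with a correlation over 0.1), and with a replicate block 24 members were called for Cry2 light, 0 for wt light, 2 in the dark and 22 for Cry2 minus wt. The causes were not tested. Without the filter on low values MMP10 was also called for Cry2 light, mCherry light, Cry2 minus wt and mCherry minus GFP.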
